A study of Mus musculus with 6 samples.

Results

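MHC class II molecules display peptides to CD4+ T lymphocytes, and 10 mouse genes of this system were followed in islet cells exposed to T lymphocyte exosomes. They are the class II chain genes H2-Aa, H2-Ab1, H2-Eb1 and H2-Eb2, the peptide exchange genes H2-DMa, H2-DMb1 and H2-Oa, the invariant chain gene Cd74, the transactivator gene Ciita and the ubiquitin ligase gene Marchf1 (older symbol March1). They were taken by symbol through the RefSeq accession of each probe, which gave 12 probes, and each gene was read from the probe with the highest mean signal over all 6 arrays. All 10 were above background on every array, and they are 10 of the 25784 genes tested. The mean signal that chose the probe decided only between the paired probes of H2-Ab1 (20898 for the probe used, 19419 for the other) and of Marchf1 (5192 and 55.3). The genes themselves were selected by name on earlier results of the exoNOD and control comparison, so their differences between these groups are a description and support nothing by themselves.

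The exoNOD cells were islet cells of male C57Bl/6N mice, dispersed and kept for 72 h with exosomes at 50 µg/ml (3 arrays). The exosomes, small vesicles shed by cells, came from the medium of CD4+CD25- T lymphocytes. These were taken from NOD mice, which are prone to autoimmune diabetes. The control cells were islet cells of the same strain and sex kept for 72 h without any exosomes (3 arrays), so the vesicles of NOD T lymphocytes were not set against other vesicles. The ages of the mice are not given in the labels, and experiments differed in their islets and exosome batches. RNA made by the islet cells and RNA carried in by the exosomes cannot be told apart on these arrays.

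In background terms, an alpha and a beta chain pair in the endoplasmic reticulum around the invariant chain, which CD74 provides. The complex moves to endosomes, where the invariant chain is cut away and H2-DM exchanges its last fragment for a peptide, a step that H2-O holds back. CIITA is the master switch of class II transcription and is induced by interferon gamma, and MARCH1 tags class II and CD86 for removal from the surface of antigen-presenting cells. In the islet, resident macrophages and dendritic cells are the usual source of class II. C57Bl/6 mice carry a broken alpha chain gene for the I-E molecule, so their I-E beta chain genes are transcribed without forming surface I-E.

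The promoters of class II genes are known for an X box and a Y box, elements that bind the RFX and NF-Y factors with which CIITA acts. The windows shown next are those of genes whose array values part ways below, printed to show which letters they share. They come from RefSeq (GRCm38.p6), each with 250 bases before and 50 after the start of the gene, 5′ to 3′ in the direction of the gene, and capitals mark the letters AACTGATG (X box type) and TGATTGG (Y box type), searched on both strands and not overlapping each other. The letters were chosen after the windows had been read.
H2-Eb2, plus strand, chr17:34325425-34325724: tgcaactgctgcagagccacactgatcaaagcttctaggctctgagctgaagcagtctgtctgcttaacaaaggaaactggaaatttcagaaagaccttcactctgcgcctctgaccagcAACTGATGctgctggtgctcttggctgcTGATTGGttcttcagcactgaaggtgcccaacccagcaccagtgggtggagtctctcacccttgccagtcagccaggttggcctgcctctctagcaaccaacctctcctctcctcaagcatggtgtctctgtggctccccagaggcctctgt
H2-Eb1, plus strand, chr17:34305617-34305916: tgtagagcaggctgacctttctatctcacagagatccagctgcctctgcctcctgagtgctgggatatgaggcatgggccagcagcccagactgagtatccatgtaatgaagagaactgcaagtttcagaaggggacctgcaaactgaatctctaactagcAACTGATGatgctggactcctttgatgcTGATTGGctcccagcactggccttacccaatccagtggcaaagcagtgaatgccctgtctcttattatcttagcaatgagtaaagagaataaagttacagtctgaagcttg
H2-DMb1, plus strand, chr17:34152941-34153240: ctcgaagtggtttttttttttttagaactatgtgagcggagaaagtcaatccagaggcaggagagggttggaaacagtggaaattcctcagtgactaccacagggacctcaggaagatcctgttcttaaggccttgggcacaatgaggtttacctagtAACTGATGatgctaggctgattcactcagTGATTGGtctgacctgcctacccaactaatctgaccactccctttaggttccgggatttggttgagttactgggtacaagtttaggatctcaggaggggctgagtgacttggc
H2-Aa, minus strand, chr17:34287774-34288073: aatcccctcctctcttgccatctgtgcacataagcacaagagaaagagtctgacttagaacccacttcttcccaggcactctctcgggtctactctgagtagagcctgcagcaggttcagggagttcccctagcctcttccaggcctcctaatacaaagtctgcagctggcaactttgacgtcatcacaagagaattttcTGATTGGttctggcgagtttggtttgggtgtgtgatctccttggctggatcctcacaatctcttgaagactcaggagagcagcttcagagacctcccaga

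H2-Eb2 and H2-Eb1 both held AACTGATG and TGATTGG with 20 bases between them, the first beginning 130 bases before the start in H2-Eb2 and 89 bases before it in H2-Eb1. H2-DMb1 held the same letters with 21 bases between them, beginning 92 bases before its start. H2-Aa had the Y box letters 50 bases before its start and no match to the X box letters, and H2-Oa likewise had TGATTGG 45 bases before its start. The X box letters occurred in 0.776% and the Y box letters in 7.82% of 32851 windows of this length, and 28 windows (0.0852%) held both, among them those of H2-Eb2, H2-Eb1 and H2-DMb1. None of the windows listed for H2-DMa and Marchf1 matched either motif. Windows were found for 7 of the 10 genes. In RefSeq's order along chromosome 17 H2-Eb2 lies next to H2-Eb1, after H2-Ab1 and H2-Aa, while Marchf1 lies on chromosome 8 and Ciita on 16.

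A level is the log2 signal of a gene minus the log2 75th percentile of its array, and a difference is exoNOD minus control with its standard error (SE) from limma, n = 3 arrays per group. Across the arrays 78.1% to 81.8% of spots were well above background and 0 were saturated, and the insulin gene Ins2 had 8.61, 8.63 and 8.65 in exoNOD cells, against 8.73, 8.65 and 8.72 in control cells (replicates 1, 2 and 3), as in the islet cells named on the labels. The scan times in the file headers place exoNOD replicate 1 and the controls in 1 scan and exoNOD replicates 2 and 3 in another. Over all genes 26 were higher and 1 lower at an adjusted p under 0.05 in limma (22 and 17 after quantile normalization). Replicate numbers were treated as pairs in an additional fit with a replicate block, which called 1776 higher and 472 lower.

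**Figure D1:**
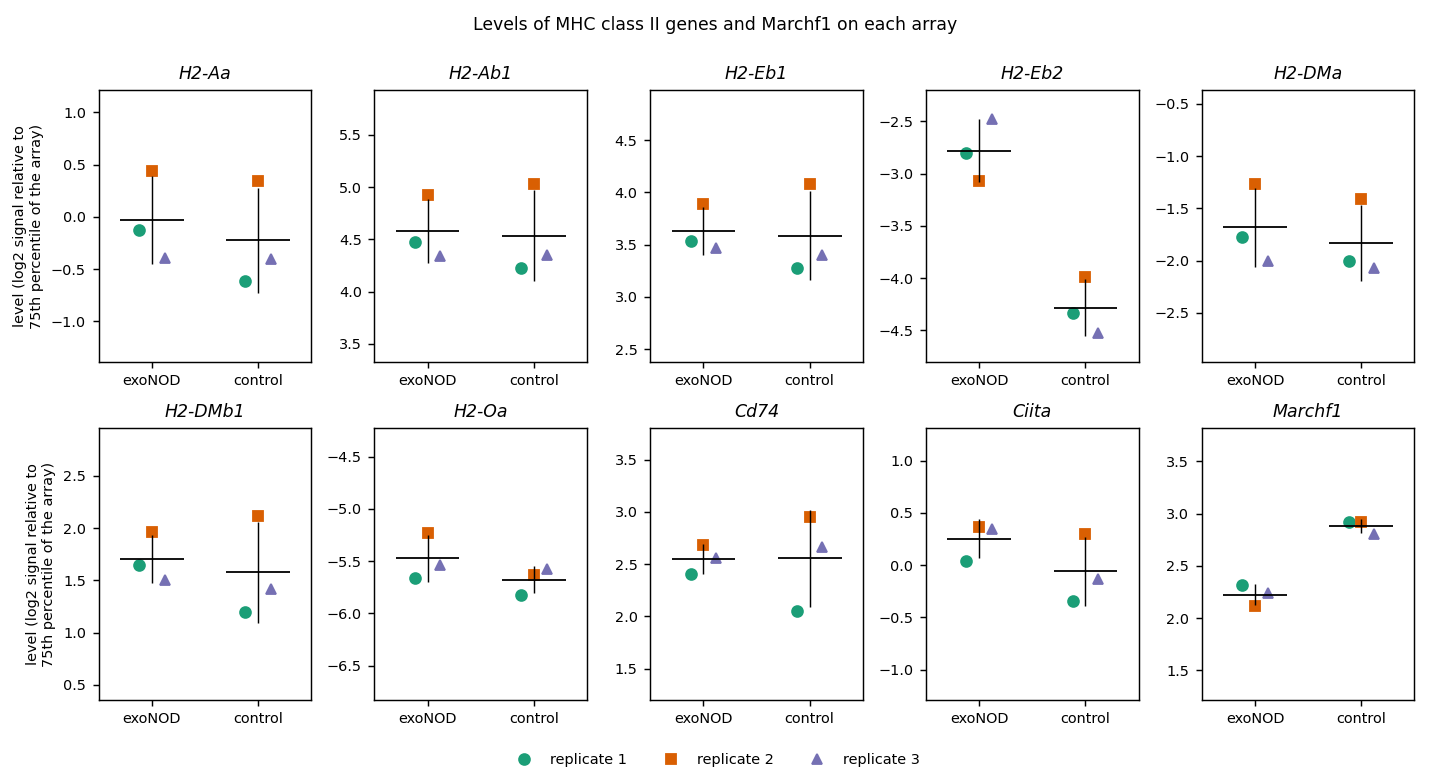
Level of each gene on every array (log2 signal relative to the 75th percentile of the array), exoNOD left and control right, with symbols for the replicate number, the group mean as a horizontal line and the SD as a vertical line; each panel spans the same log2 range. H2-Eb2 is apart between the groups and higher in exoNOD cells, Marchf1 is apart and lower, and the other genes overlap.

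H2-Eb2, an I-E type beta chain gene, had levels of −2.80, −3.07 and −2.47 on the exoNOD arrays, against −4.33, −3.99 and −4.53 on the control arrays. All exoNOD arrays lay above all control arrays, and in fluorescence the probe gave 105 to 160 units in exoNOD cells, against 35.2 to 55.6 in control cells. The difference was 1.50 ± 0.21 (SE), a 2.83-fold higher signal. It held within each pair of equal replicate number at 1.53, 0.92 and 2.06. Within the scan that holds both groups, exoNOD replicate 1 minus the mean of the 3 controls was 1.48. After normexp background correction the difference was 0.59.

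The other class II chain genes gave no such separation. H2-Aa, the I-A alpha chain gene, had −0.12, 0.44 and −0.39 in exoNOD cells, against −0.61, 0.35 and −0.41 in control cells. Its difference was 0.20 ± 0.28, and it was −0.034 without exoNOD replicate 2. H2-Ab1, the I-A beta chain gene, had 4.47, 4.92 and 4.34 in exoNOD cells, against 4.22, 5.03 and 4.35 in control cells. H2-Eb1, the neighbour of H2-Eb2, had 3.53, 3.89 and 3.47 in exoNOD cells, against 3.28, 4.08 and 3.40 in control cells. The groups overlapped in these genes, with replicate 2 the highest array on both sides. The differences of H2-Ab1 (0.045 ± 0.22) and H2-Eb1 (0.043 ± 0.21) were small against their errors and became −0.095 and −0.098 when arrays were scaled by the median.

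Peptide exchange genes overlapped between the groups as well. H2-DMa, the alpha chain of the exchange factor, had −1.78, −1.27 and −2.00 in exoNOD cells, against −2.01, −1.41 and −2.07 in control cells, a difference of 0.15 ± 0.23 that was −0.061 without exoNOD replicate 2. H2-DMb1, its beta chain, had 1.65, 1.96 and 1.50 in exoNOD cells, against 1.20, 2.12 and 1.42 in control cells. Its difference was 0.13 ± 0.23 and turned to −0.012 when arrays were scaled by the median. H2-Oa, which encodes the alpha chain of the inhibitor of that exchange, had 17.2 to 23.6 units in exoNOD cells, against 14.9 to 17.8 units in control cells. The lowest signals that counted as above background were between 9.08 and 11.99 units, depending on the array, so H2-Oa lay close to the limit of detection. Its levels were −5.66, −5.23 and −5.53 in exoNOD cells, against −5.83, −5.63 and −5.58 in control cells, a difference of 0.21 ± 0.21 that was −0.056 after quantile normalization.

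The invariant chain and the transactivator did not separate the groups. Cd74 had 2.40, 2.69 and 2.56 in exoNOD cells, against 2.05, 2.96 and 2.66 in control cells. Its difference was −0.0072 ± 0.21, positive after quantile normalization (0.015), and the exoNOD arrays lay inside the range of the controls. Ciita had 0.034, 0.37 and 0.35 in exoNOD cells, against −0.35, 0.30 and −0.13 in control cells. Here the exoNOD array was higher in each of the 3 pairs, by 0.38, 0.069 and 0.48, but exoNOD replicate 1 lay below control replicate 2. The difference of Ciita was 0.31 ± 0.18 overall and 0.095 for exoNOD replicate 1 against the controls of its scan.

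Marchf1 was the one gene of the set whose used probe was lower on every exoNOD array. Its levels were 2.32, 2.11 and 2.24 in exoNOD cells, against 2.92, 2.92 and 2.81 in control cells. The difference was −0.66 ± 0.10, and the control signal was 1.58 times the exoNOD signal. The pairs differed by −0.60, −0.81 and −0.56, and exoNOD replicate 1 minus the mean of the controls of its scan was −0.56.

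A further Marchf1 probe with the same accession went the other way. It is spotted 10 times on the array and had −3.93, −3.44 and −3.84 in exoNOD cells, against −4.50, −4.42 and −3.97 in control cells. It lay higher on all exoNOD arrays than on all control arrays, a difference of 0.56, though control replicate 3 came close to the exoNOD arrays. In fluorescence it gave 57.2 to 81.4 units in exoNOD cells, against 37.7 to 51.9 units in control cells. With all 31065 probes tested it did not pass (limma adjusted p = 0.268, or 0.0953 with the replicate block). The probe used gave 3822 to 4335 units in exoNOD cells, against 5679 to 6696 units in control cells. RefSeq lists 3 promoter windows for Marchf1, at chr8:65617790-65618089, chr8:65618275-65618574 and chr8:66386051-66386350 (plus strand), and the position of either probe among its transcripts was not analysed here. The direction of Marchf1 therefore depends on the probe. The paired probes of H2-Ab1, by comparison, differed between the groups by 0.045 and 0.051.

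**Figure D2:**
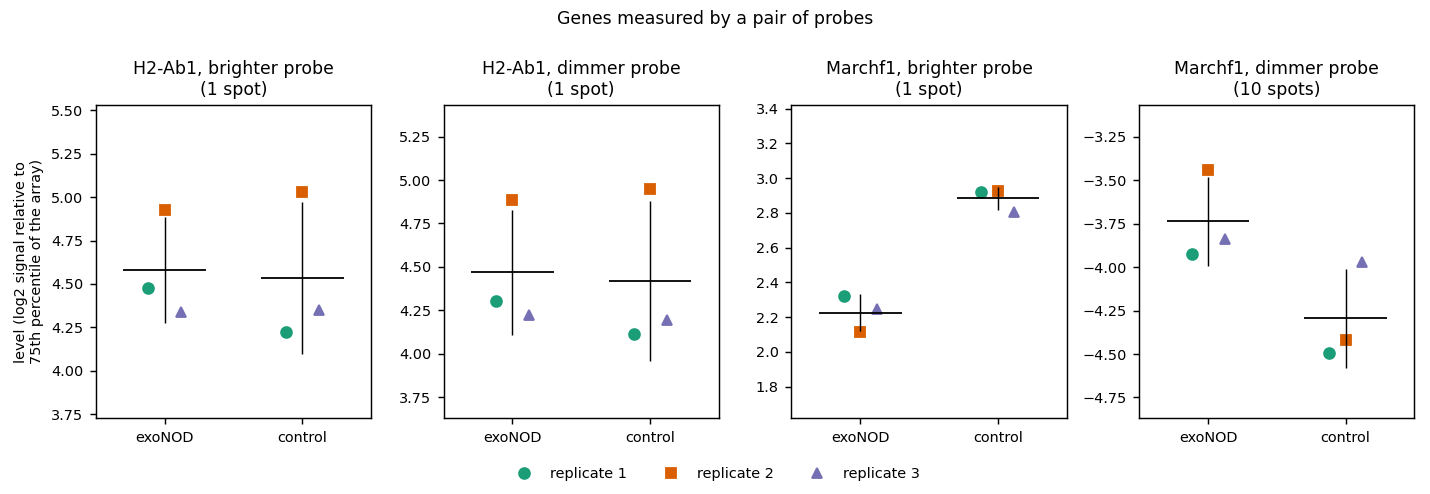
Levels (log2 signal relative to the 75th percentile of the array) on each array for the brighter and the dimmer probe of H2-Ab1 and of Marchf1, exoNOD left and control right, with symbols for the replicate number, the group mean as a horizontal line and the SD as a vertical line. The H2-Ab1 probes show the same pattern, while the Marchf1 probes lie on opposite sides, −0.66 for the brighter and 0.56 for the dimmer.

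Taking the 10 genes as a set, 8 were higher and the median difference was 0.14, against 0.035 over all genes tested, of which 55.4% were higher. With arrays scaled by the median the median of the set was −0.0032, with H2-Ab1, H2-Eb1, H2-DMb1 and Cd74 below 0, against −0.11 over all genes. Leaving out exoNOD replicate 2 gave −0.048, leaving out control replicate 1 gave −0.028 and leaving out control replicate 2 gave 0.32. The groups did not overlap for 2 of the 10, against 22.3% of all genes. Higher without overlap was H2-Eb2 (14.6% of all genes were) and lower was Marchf1 (7.78%). In limma 0 of the 10 passed at an adjusted p under 0.05, against 0.105% of all genes (0.101% higher, 0.00388% lower), with 2 of the 10 at an unadjusted p under 0.05. With the replicate block 2 of the 10 passed, against 8.72% of all genes. They were H2-Eb2, higher as were 6.89% of all genes, and Marchf1, lower as were 1.83%. Since this contrast was known when the genes were chosen, nothing is read from these counts.

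**Figure D3:**
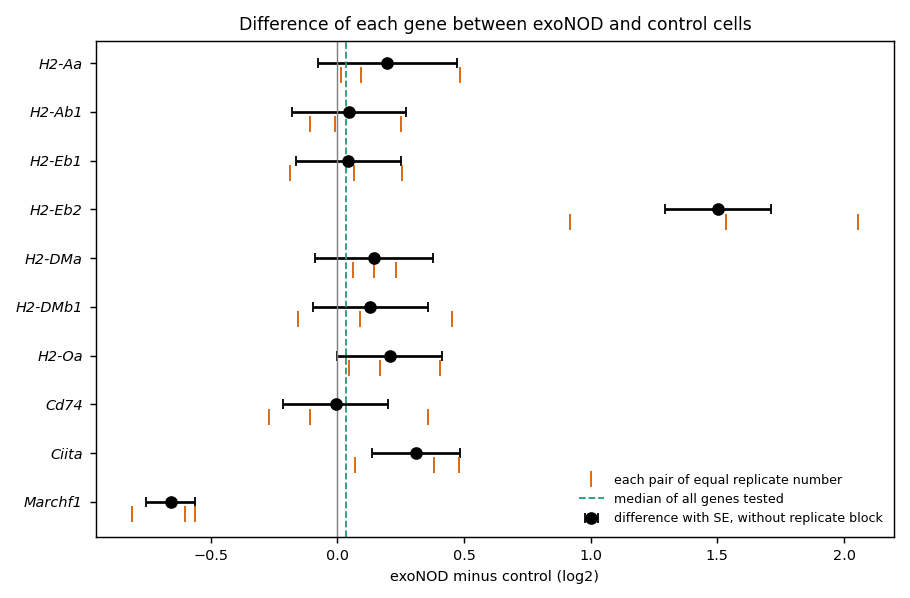
Difference between exoNOD and control cells (log2, x axis) for each gene, as a point with its SE, with the differences within the 3 replicate pairs as ticks under it and the median of all genes tested as a dashed line. H2-Eb2 lies at 1.50 and Marchf1 at −0.66, and the rest lie between −0.0072 and 0.31.

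The class II genes also varied together between replicate numbers, a comparison that played no part in choosing them. For H2-Aa, H2-Ab1, H2-Eb1, H2-DMa, H2-DMb1, Cd74 and Ciita, 7 of the 10 genes, replicate 2 was the highest array in exoNOD cells and in control cells, which was so for 17% of all genes. A moderated F test in limma over the replicate numbers, with the group in the model, was added after these values had been seen. By it 5 of the 10 genes differed between replicate numbers at an adjusted p under 0.05, as did 6.69% of all genes. After quantile normalization the same 5 passed, as did 5.36% of all genes. H2-Aa stood highest above the other replicates, with replicate 2 at 1.71 times their signal (0.77 on the log2 scale, adjusted p = 0.00988). H2-Ab1 stood 0.63 above them (adjusted p = 0.0160), H2-Eb1 0.56 (0.0273), H2-DMa 0.62 (0.0240) and H2-DMb1 0.60 (0.0345). Cd74 and Ciita, at 0.40 and 0.36, did not pass (adjusted p = 0.0650 and 0.0877).

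**Figure D4:**
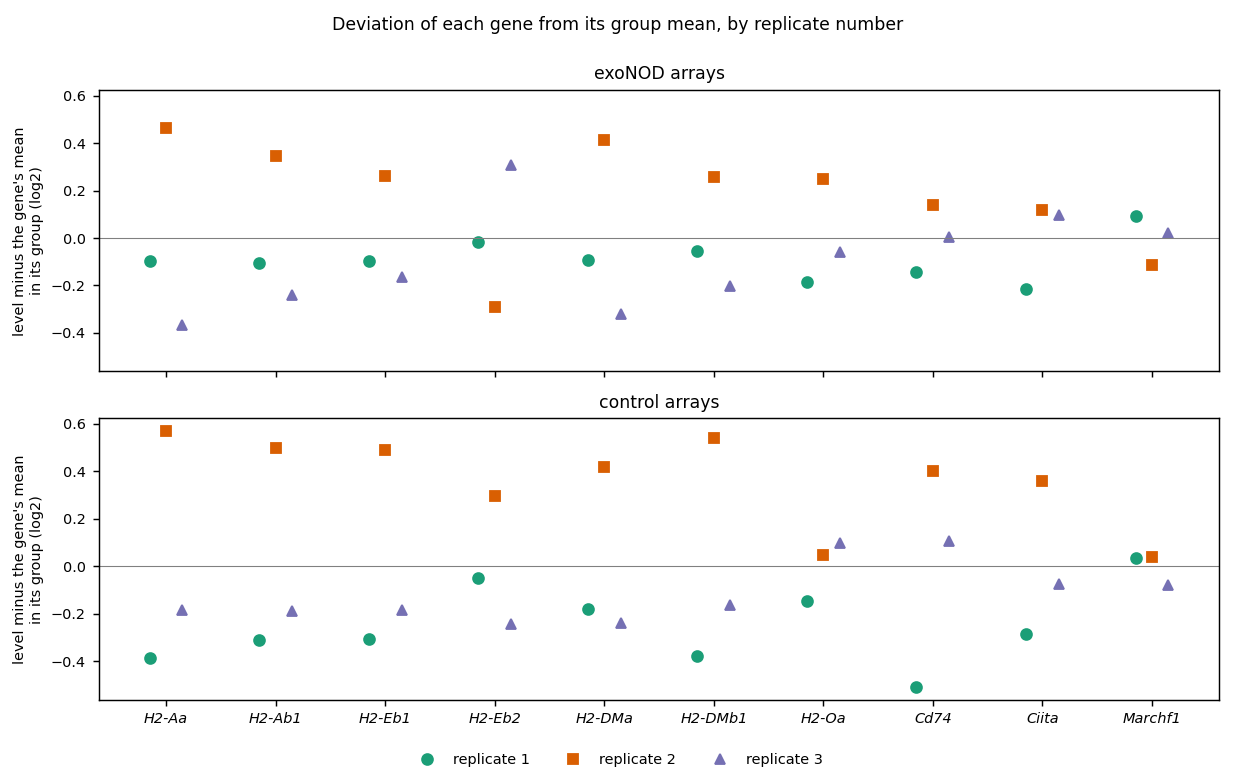
Level of each gene minus its mean in its group (log2), for exoNOD arrays above and control arrays below, with symbols for the replicate number. Replicate 2 is the top symbol in both groups for 7 genes and not for H2-Eb2, H2-Oa and Marchf1.

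H2-Eb2 did not share this pattern, and neither did Marchf1. The mean levels of H2-Eb2 by replicate number lay within 0.066 of each other (adjusted p = 0.981), with replicate 2 the lowest exoNOD array and the highest control array. Those of Marchf1 lay within 0.10 (0.742) and those of H2-Oa within 0.31 (0.730). The 5 calls were lost without the replicate 2 arrays. They fell to 0 of 10 without that pair, where 2 had an unadjusted p under 0.05. They also fell to 0 without exoNOD replicate 2 alone, where 7 had an unadjusted p under 0.05 and calls over all genes fell to 387, against 1725. Without control replicate 2 alone they were again 0, with 6 at an unadjusted p under 0.05 and 536 calls over all genes. They were 3 (H2-Aa, H2-DMa and H2-DMb1) with scaling by the median and 2 (H2-Aa and H2-Ab1) with no filter on dim probes. The replicate 2 arrays of the groups belong to different scans. The labels do not say what equal replicate numbers share.

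Markers of the cells that carry class II were set beside this, since the arrays hold mixed cells and more cells of a type cannot be told apart from more RNA per cell. Of 15 macrophage and monocyte markers tested, 5 were highest in replicate 2 of both groups, among them Adgre1, which encodes F4/80 (−2.32, −1.22 and −2.65 in exoNOD cells, against −1.33, −0.94 and −1.31 in control cells), and the fractalkine receptor gene Cx3cr1. The other macrophage and monocyte markers, among them Csf1r and Itgam, did not have this pattern. Replicate 2 was highest in both groups for 17% of all genes. It was so for 3 of 9 genes for proteins that MARCH1 or MARCH8 acts on and for CD83. Of 10 dendritic cell markers this held for 1 and of 14 B lymphocyte markers for 1. Of 13 T lymphocyte markers it held for 0, and of 10 pan leukocyte markers for 1. The part of these cells in the level of the class II genes was not tested.

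Between the groups the same markers moved in both directions. For the list counts with the block here and below, 6.89% of all genes were called higher and 1.83% lower. The summed signal of the macrophage and monocyte markers, in multiples of the 75th percentile of the array, was 23.8 to 26.4 in exoNOD cells, against 30.5 to 32.9 in control cells. Without the brightest of them, Itgam, whose other probes differed in the opposite direction (0.16 and 0.50, against −0.50 for the probe used), the sums overlapped, at 10.5 to 14.3 in exoNOD cells and 12.3 to 14.2 in control cells. With the replicate block 1 macrophage marker rose, the mannose receptor gene Mrc1 (difference 2.20, limma adjusted p = 0.00176). Mrc1 was above background on 3 exoNOD arrays and on 1 control array. It was thus kept only through the exoNOD group, and its p-value is a description. Falls with the block numbered 4, among them Cx3cr1 (−1.11, 0.00485) and Adgre1 (−0.87, 0.0158). The other probes of these genes did not pass, with −0.51 for Cx3cr1 (0.143) and −0.098 for Adgre1 (0.703). Conversely, Csf1r did not pass by the probe used (−0.019, 0.921) but rose by 1 of its other probes (0.48, 0.0240). A further Csf1r probe did not pass (−0.097, 0.737). Of the B lymphocyte markers 14 of 14 were higher, as were 55.4% of all genes. With the block 4 of these markers passed the threshold. The sums of the list were 4.91 to 5.61 in exoNOD cells, against 4.21 to 4.31 in control cells. Ms4a1, the CD20 gene, exceeded background on 3 exoNOD arrays against 0 control arrays, with a signal at least 3.15-fold higher in exoNOD cells (limma adjusted p = 0.0827, or 0.00863 with the block), while Bank1 and Fcrla were below background on all 6 arrays. Ms4a1 was likewise kept only through the exoNOD group, so its p-values and its place among the 4 that passed are a description. For dendritic cells the sums were 133 to 137 in exoNOD cells, against 120 to 125 in control cells. Siglech was the brightest marker, and its other probe was above background on 0 exoNOD and 0 control arrays. Without Siglech the sums were 33.0 to 37.8 in exoNOD cells, against 31.1 to 37.0 in control cells. Most of that remainder was again the signal of 1 gene, Mgl2. Its levels were 4.95, 5.05 and 5.15 in exoNOD cells, against 4.86, 5.10 and 5.10 in control cells. Clec10a and Xcr1 were below background on all arrays. T lymphocyte markers had 3 of 13 past the threshold with the block, all higher. Their sums were 17.1 to 22.0 in exoNOD cells, against 16.4 to 21.4 in control cells. Without the brightest of them, Cd3e, the sums were 7.57 to 10.6 in exoNOD cells, against 6.31 to 8.03 in control cells. Cd3g was below background on all arrays. Islet endocrine markers had 4 of 16 lower with the block and 0 higher, with sums of 2453 to 2519 in exoNOD cells, against 2629 to 2685 in control cells. Endothelial markers had 1 of 11 higher and 3 lower with the block, and pan leukocyte markers 1 of 10 higher and 1 lower, and the sums of both lists overlapped between the groups. The endothelial counts depend on the probe. Plvap, the gene that rose (0.43, 0.0212), was lower by its other probe without passing (−0.35, 0.0840). Kdr did not pass by the probe used (−0.095, 0.536) and fell by its other probe (−0.97, 0.00341). The part of these cells in the differences of H2-Eb2 and Marchf1 was not tested. Without the block 0 of the 158 list genes tested outside the 10 passed in limma, with 40 at an unadjusted p under 0.05.

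Of the further class II genes looked for, H2-Ob alone was tested. H2-Ob, which pairs with H2-Oa, had −2.00, −1.51 and −1.36 in exoNOD cells, against −1.99, −2.10 and −2.09 in control cells, a difference of 0.44 ± 0.17 that did not pass (limma adjusted p = 0.271, or 0.0927 with the block). H2-DMb2, the close relative of H2-DMb1, was below background on all arrays.

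Factors that act on class II promoters with CIITA showed 0 of 18 genes past the threshold and a median difference of −0.076, and with the replicate block 1 fell. That gene was Nfyc, an NF-Y subunit (difference −0.41, limma adjusted p = 0.152, or 0.0143 with the block), and its other probe did not pass (−0.17, 0.216 with the block). Irf8, a factor of myeloid cells, differed by 0.26 and Nfyb by 0.30 without passing in either fit (0.0891 and 0.0626 with the block). Upstream, in the interferon gamma receptor pathway, 0 of 10 passed and 3 rose with the block. Ifng itself exceeded background on 3 exoNOD arrays against 0 control arrays, with a signal at least 2.85-fold higher in exoNOD cells (limma adjusted p = 0.0753, or 0.00227 with the block). Ifng was thus kept only through the exoNOD group, and its p-values and its place among the 3 that rose are a description. The feedback inhibitor genes Socs1 (0.55, 0.0162) and Socs3 (0.53, 0.00485) rose with the block. Ciita, given above, did not pass with it (adjusted p = 0.0822).

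Downstream, of 13 genes for class II peptide processing 0 passed in either fit, with a median difference of 0.064. Ctss, the cathepsin that trims the invariant chain, had 2.70, 2.79 and 3.02 in exoNOD cells, against 2.33, 2.40 and 2.92 in control cells (difference 0.28 ± 0.17, limma adjusted p = 0.410, or 0.0734 with the block). The cathepsin gene Ctsz differed by 0.29 ± 0.16 (0.371, or 0.0512 with the block).

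Among the 11 ubiquitin ligase genes of the MARCH family 0 passed, and with the replicate block 1 rose and 2 fell. Marchf3 rose (0.46, limma adjusted p = 0.0380) and Marchf9 fell (−0.30, 0.0477), and Marchf1 is the other fall. These counts use 1 probe per gene and depend on it. Dimmer probes of Marchf10 (1.36, 0.0385) and Marchf11 (1.39, 0.0115) rose with the block. Both were above background on 3 exoNOD and 2 control arrays, so they were kept only through the exoNOD group. The probes used for Marchf10 (0.32, 0.201) and Marchf11 (0.31, 0.162) did not pass. Of 9 tested genes for proteins that MARCH1 or MARCH8 acts on and for CD83, which opposes MARCH1, 1 rose with the block, the death receptor gene Tnfrsf10b (0.53, 0.0382). Cd83 had −3.71, −3.17 and −4.19 in exoNOD cells, against −3.32, −3.22 and −3.21 in control cells, overlapping between the groups (difference −0.44 ± 0.24, limma adjusted p = 0.385). The T lymphocyte costimulation and checkpoint ligands had 0 of 11 genes past the threshold. With the block 6.89% of all genes rose, and 5 of these ligands did. They include Pdcd1lg2, which encodes the PD-1 ligand PD-L2, at −2.41, −1.72 and −1.98 in exoNOD cells, against −4.70, −5.00 and −3.35 in control cells (difference 2.31 ± 0.39, adjusted p = 0.0814, or 0.00196 with the block), and Cd40, the receptor by which T lymphocytes activate antigen-presenting cells (0.54, 0.0320 with the block).

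Across the 6 arrays, the genes whose levels most resembled those of the class II and Marchf1 genes were found among 16320 others by Pearson's r, as a description. For H2-Eb2 they were Bhmt (r = 0.992), Tmem51os1 (0.982) and Tpsb2 (0.981), for H2-Aa they were Ube2h (0.994), Trim34b (0.992) and Cul2 (0.987), and for Marchf1 they were Scrn2, Slc17a5 and Phf12 (0.997 each). With 6 arrays such values are common, since 51, 42 and 168 genes exceeded 0.95 for H2-Eb2, H2-Aa and Marchf1 in that order.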

How the data were processed

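Total RNA of the 6 islet cell cultures was labelled with Cy3 and read on 1-colour Agilent arrays. The deposited files hold, per the file headers, the intensity of each spot from Agilent Feature Extraction 11.0.1.1, with background subtraction and spatial detrending done by the authors in that software, and 0 or 1 flags (other values, per the file headers). The authors' deposited values are on the log2 scale and lie close to a quantile normalization. Here the processed signal was taken as log2, outlier spots were dropped, each probe's spots averaged and the log2 75th percentile subtracted. A probe was kept when every array of either group had it well above background, 31065 of 39429 probes, and named through RefSeq accessions. Files hold the median, not the mean, spot signal, so normexp (offset 50) used the median. The comparison used lmFit and eBayes (trend) of limma 3.58.1 under R 4.3.3 (Benjamini-Hochberg over 25784 genes, two-sided). The fits were first tested on simulated data. Deviations from the group mean correlated across genes at 0.366, 0.281 and 0.481 between arrays of equal replicate number and between −0.341 and 0.0087 otherwise. Equal numbers were therefore treated as pairs, although the labels do not state a pairing. Deviations cancel within each group, so positive values at equal numbers by themselves push the other values down. The pairing was also read from the same arrays that the block tests, and every call with the block depends on it. P-values measure the spread between these samples, whose precision the number of arrays limits. The named genes are the 10 members, at most 4 genes per list, by lowest unadjusted p, the 3 genes most alike to H2-Aa, H2-Eb2 and Marchf1, and the islet hormone genes. List genes named as below background on all arrays (such as H2-DMb2) have no p and were named after their values were seen. Blk, Cd3e, Csf1r, Kdr, Marchf11 and Mgl2 were likewise named after their values were seen. The reason was a further probe, their share of a sum or their signal against background. The members and lists were chosen with earlier results of these data known. Alternatives were the replicate block, normalization, background correction, filters, array weights, scan as a block, all probes, the authors' values and leaving out each array.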

Additional observations from a re-analysis of the deposited data

How the results depend on the processing

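H2-Eb2 stayed higher and Marchf1 lower in exoNOD cells in every setting run for the probe used, and Ciita stayed positive. Within the shared scan, or with scan as a block, exoNOD replicate 1 alone was compared with the controls. There H2-Eb2 differed by 1.48 and Marchf1 by −0.56. In the main fit 0 of the 10 genes passed, and 0 with scaling by the median, normexp or no filter on dim probes. With all probes tested, or only probes above background on all 6 arrays, the count was again 0. In limma 2 of the 10 genes passed with the replicate block, 2 with the block after quantile normalization, 2 with the block in the authors' values, 2 with array weights, 1 with quantile normalization (Marchf1) and 1 from the authors' values (Marchf1), between 0 and 2 with single arrays left out, and 2 with the block and any 1 pair left out. The cause was not tested. Of list genes outside the 10, 35 passed with the block, 21 with the block after quantile normalization, 21 with the block in the authors' values, and between 0 and 15 (15 without exoNOD replicate 1) with single arrays left out. With the block and pair 1, 2 or 3 left out, 51, 15 and 29 passed. Of all genes 27 passed. The count was 2248 with the block, 1255 with the block after quantile normalization, 1229 with the block in the authors' values, 13 with scaling by the median, 53 with array weights, and 0 with normexp (3688 at an unadjusted p under 0.05), with no filter on dim probes (4638), with scan as a block (929) and within the shared scan alone (1141). With single arrays left out it lay between 0 and 1274, with 1274 once exoNOD replicate 1 was left out, and was 0 without exoNOD replicate 2 or without control replicate 1 or 2. With the block and pair 1, 2 or 3 left out it was 4174, 440 and 1738. Scaling by the median moved the median difference of all genes to −0.11, against 0.035.

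Of the 10 genes, 5 differed between replicate numbers, 3 with scaling by the median, 2 with no filter on dim probes, and between 0 and 7 with arrays or pairs left out. Small differences between the groups changed sign. Cd74 was 0.0013 with array weights, 0.0146 with quantile normalization and 0.0136 in the authors' values, both also with the block, where it was 0.1235 without pair 2 and 0.0438 without pair 3. H2-Ab1 was −0.0291 with array weights, −0.0954 with scaling by the median and −0.0601 within the shared scan or with scan as a block. H2-Eb1 was −0.0122, −0.0976 and −0.0527 in those settings, and H2-DMb1 was −0.0118 with scaling by the median. With the block and without pair 1, H2-Ab1 was −0.0574, H2-Eb1 −0.0624 and H2-DMb1 −0.033. H2-Oa was −0.0558 after quantile normalization, −0.0545 in the authors' values, both also with the block, and −0.0294 with normexp. With arrays or pairs left out, differences ranged from −0.2612 to 0.1927 for Cd74, −0.1271 to 0.2936 for H2-Ab1, −0.1103 to 0.2887 for H2-Eb1, −0.0603 to 0.3989 for H2-DMb1, −0.0338 to 0.482 for H2-Aa and −0.0612 to 0.3541 for H2-DMa. Dim probes such as H2-Oa and H2-Eb2 are limited by their signal over background. The planned normexp on mean signals was not run, as these files hold medians.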
